A study of Zea mays with 6 samples.

Results

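The genes described here are those that reached a high transcript level in 16-DAP (days after pollination) endosperm of the *zmnac128 zmnac130* double mutant of maize and lay well above their wild-type (WT) level there. A gene was taken as a member when its mean in both distinct mutant libraries was at least 50 FPKM (fragments scaled to transcript length and library size), its WT mean was below 500 FPKM with at least one WT value above 0, and the smaller mutant value was at least 2.5 times the larger WT value. Of 44303 genes in the deposited tables, 82 met these limits, and 3 of them were set aside by name, which left 79 members. The excluded genes were a UDP-glucose pyrophosphorylase (Zm00001eb320800) and the aquaporins TIP1-1 (Zm00001eb003730) and SIP1-2 (Zm00001eb349840). The members were thus chosen by the same FPKM values of these libraries that are described below, so levels and ratios of members are a description and carry no test.

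The libraries came from polyA RNA of *zmnac128 zmnac130* endosperm and of WT endosperm, both at 16 DAP and both from F2 progeny of B73 and KN5585. The double mutant carries knockout alleles of *ZmNAC128* and *ZmNAC130*, made in KN5585, and RNA was pooled from more than 3 endosperms. KN5585 chromosome segments linked to the mutant alleles, and unlinked ones by the sampling of F2 endosperms, may differ between the genotypes as well. In these libraries such differences and the loss of both genes cannot be told apart. Replicates 1 to 3 of each genotype were deposited, but in both genotypes the column of replicate 3 repeated replicate 1 in all 44303 genes, so n = 2 per genotype throughout. The study calls its numbered samples independent. The labels do not say what separates them, whether plants, ears or extractions, so p-values measure only the spread between these libraries.

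ZmNAC128 and ZmNAC130 belong to the NAC family, plant-specific DNA-binding transcription factors, and act in the filling endosperm, where starch and the zein storage proteins accumulate. Developing endosperm draws on sucrose breakdown, glycolysis, fermentation and amino acid synthesis to supply carbon skeletons for storage. Enzymes of those routes are therefore normally active beside the storage proteins themselves.

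Depth was 30696032 and 29312397 reads in genes in the mutant and 28478576 and 26317317 in WT, read from the steps of the FPKM values. The 7 genes described as zeins, which mark starchy endosperm, were present in all libraries, at 3.56% and 2.59% of all FPKM in the mutant and 9.26% and 9.28% in WT. The single identified marker of the basal transfer layer, *betl3*, had 44.4 and 29.5 FPKM in the mutant and 135 and 162 FPKM in WT. Both markers were thus lower in the mutant, and their part in the members' values was not tested. Their genes were among those the study selected as differing, with the help of these libraries, so a difference was close to fixed. In bulk tissue, fewer cells of a type and less RNA per cell cannot be told apart. The mutated genes did not serve to check the labels, because no source used here gives their IDs.

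Across the 79 members, the mutant mean had a median of 108 FPKM and ran between 50.3 and 8218 FPKM, whereas the WT mean had a median of 24.2 FPKM and ran between 0.332 and 418 FPKM. The ratio of mutant to WT mean had a median of 4.27, with quartiles of 3.05 and 8.23. It was at least 5 in 28 members, at least 10 in 17 and at least 50 in 5. Most members were therefore already transcribed in WT endosperm. Only 2 had a WT mean below 1 FPKM, 10 lay below 5 FPKM, and 44 lay at 20 FPKM or more. In the mutant, 46 members had a mean of at least 100 FPKM, 19 at least 200 and 3 at least 1000. Of 1665 genes that met the level limits, 4.92% met the ratio, the 3 genes set aside included.

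**Figure D1:**
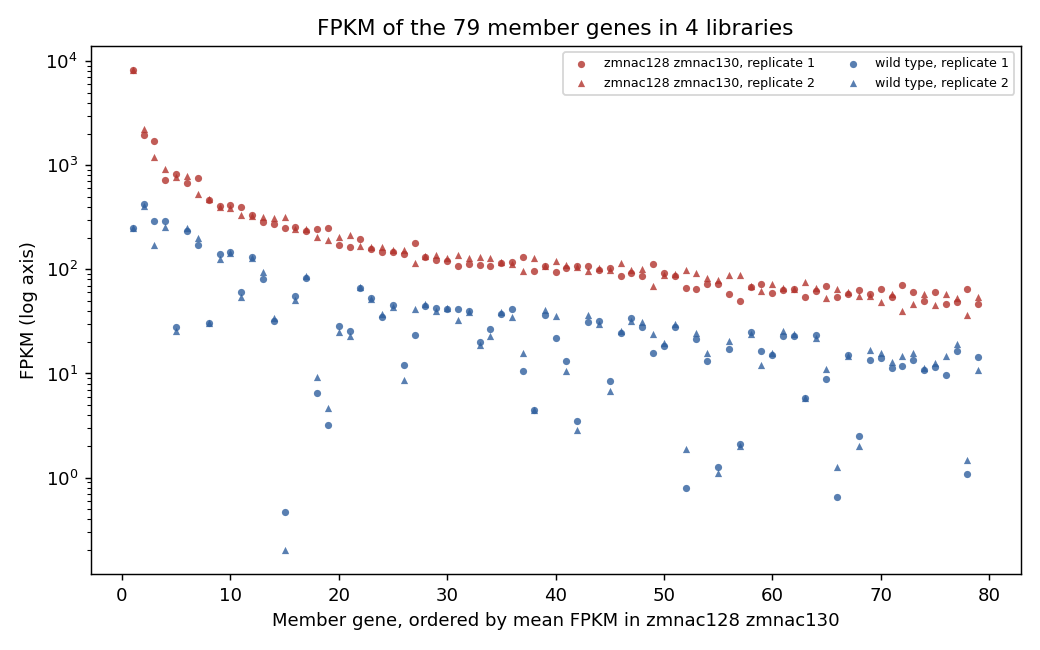
FPKM (log axis) of the 79 members in each of the 4 libraries, ordered along the horizontal axis by their mean in *zmnac128 zmnac130* (red) with WT in blue. Circles and triangles are replicates 1 and 2. Mutant means fall along the order between 8218 and 50.3 FPKM, while WT values scatter between 0.20 and 428 FPKM.

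All 79 members were among the 19082 genes tested with limma on log2(FPKM + 1), and all 79 were called higher in the mutant (log2 fold change above 1, adjusted p below 0.05), where 6.43% of all tested genes were called higher. By the rule, no member overlapped between the genotypes, against 38.4% of tested genes with both mutant libraries above both WT libraries. Since the rule used the same contrast, nothing is read from either count. Fitted log2 fold changes of members had a median of 2.03 and lay between 1.34 and 7.73, against a median of 0.0068 over all tested genes.

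Together the members made up 4.18% and 4.13% of all FPKM in the mutant, against 0.601% and 0.598% in WT. A single gene carried a large part of this. Zm00001eb341550, for which the sources give no description, had 8236 and 8199 FPKM in the mutant and 247 and 248 FPKM in WT. It ranked as number 6 and 4 of all genes in the mutant libraries and as number 211 and 209 in WT. It alone took 1.42% and 1.40% of all FPKM in the mutant and 0.0398% and 0.0406% in WT. Its replicates differed by less than 1.01-fold in both genotypes, and the ratio of its means was 33.2. Without it, the other 78 members held 2.76% and 2.74% in the mutant and 0.562% and 0.557% in WT.

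The 10 members with the highest mutant means had no description in the sources used here, and were not among the differing genes that the study lists. Zm00001eb184000 came after Zm00001eb341550, with 1936 and 2253 FPKM in the mutant and 428 and 409 FPKM in WT, the highest WT mean of all members. Zm00001eb166590 had 1696 and 1206 FPKM in the mutant and 292 and 172 FPKM in WT, and Zm00001eb166580 had 828 and 772 FPKM in the mutant and 28.3 and 25.6 FPKM in WT. Both genotypes of Zm00001eb166590 varied between replicates by over 1.4-fold, and the groups lay apart by more than that, as the rule required. Zm00001eb228920 was tight, at 463 and 477 FPKM in the mutant and 30.4 and 30.6 FPKM in WT. The remaining 5 of the 10 (Zm00001eb028030, Zm00001eb136490, Zm00001eb172830, Zm00001eb247740 and Zm00001eb370430) had ratios of means between 2.74 and 3.46, near the lower end of the members. A high mutant level thus went with both large and small ratios.

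**Figure D2:**
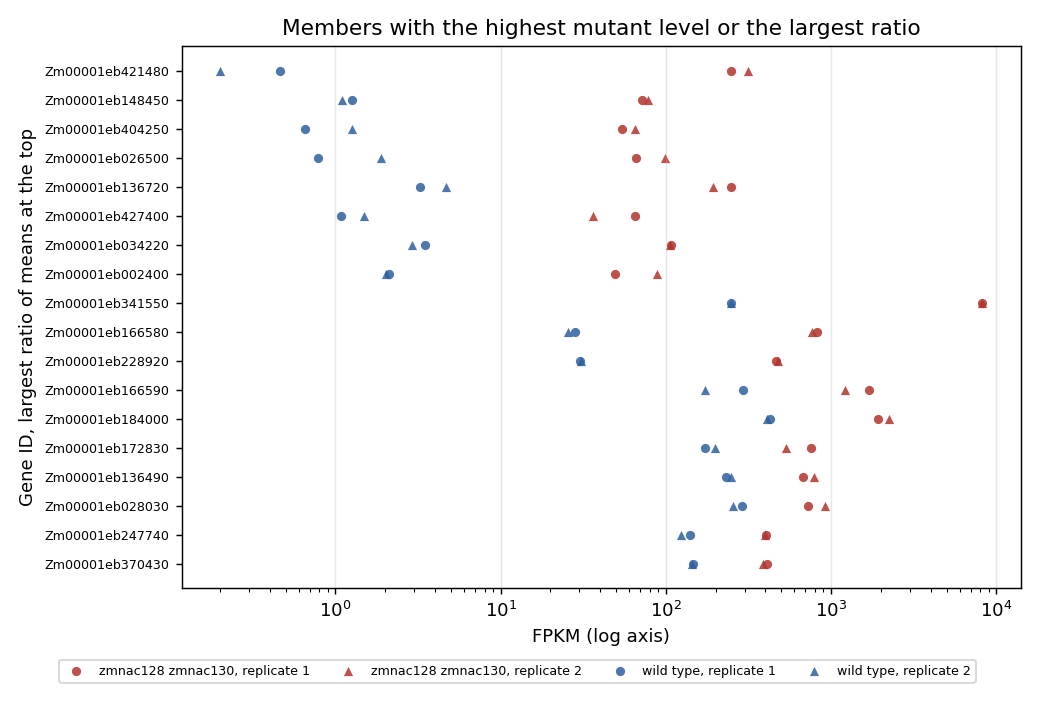
FPKM (log axis) in the 4 libraries for the 18 members that were among the 10 highest in the mutant or the 10 with the largest ratio, *zmnac128 zmnac130* in red and WT in blue, ordered by ratio of means with the largest at the top. Zm00001eb421480 is farthest apart, at 248 and 316 FPKM in the mutant and 0.46 and 0.20 FPKM in WT, and the gap narrows to 2.74-fold in Zm00001eb370430 at the bottom.

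The largest ratios belonged mostly to genes with a WT mean below 5 FPKM. As every member reached a mean of 50 FPKM in the mutant, a WT mean that low by itself gives a large ratio. Zm00001eb421480 had 248 and 316 FPKM in the mutant and 0.46 and 0.20 FPKM in WT. Its WT values rest on 5 and 2 reads, against 2886 and 3508 in the mutant, and per depth the mutant had 834 times as many reads (exact 95% interval 405 to 2075, counting error only). Zm00001eb404250 had 54.7 and 64.7 FPKM in the mutant and 0.66 and 1.27 FPKM in WT, from 14 and 25 WT reads, a 62.7-fold excess per depth (interval 45.7 to 88.3). For both genes the sources give no name. Reads are the smallest whole numbers that yield the FPKM values, so the true counts can be a multiple and these intervals can be too wide.

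Zm00001eb148450, listed by the study without a description, had 72.1 and 78.5 FPKM in the mutant and 1.27 and 1.10 FPKM in WT. Zm00001eb026500 had 66.2 and 99.3 FPKM in the mutant and 0.79 and 1.90 FPKM in WT, with a spread between replicates in both genotypes. Zm00001eb034220 had 107 and 106 FPKM in the mutant and 3.48 and 2.90 FPKM in WT, so its replicates lay close. In Zm00001eb427400 (64.9 and 36.2 FPKM in the mutant, 1.08 and 1.49 FPKM in WT) and Zm00001eb002400 (49.2 and 88.7 FPKM in the mutant, 2.11 and 2.02 FPKM in WT) the mutant libraries differed by 1.79-fold and 1.80-fold. Their ratios of means, 39.4 and 33.3, are therefore less precise than that of Zm00001eb341550. Together with the MYB gene below, Zm00001eb341550 and Zm00001eb166580 complete the 10 largest ratios.

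A further 43 members were neither listed by the study nor among the highest levels, the largest ratios or the genes nearest the limits. Their mutant means lay between 52.1 and 364 FPKM (median 94.4 FPKM) and their WT means between 2.27 and 87.3 FPKM (median 23.1 FPKM), with a median ratio of 4.03. Of these, 5 had a ratio of at least 10. Zm00001eb162710 was the most abundant of the 5, with 246 and 205 FPKM in the mutant and 6.44 and 9.35 FPKM in WT. Zm00001eb212120 had 95.6 and 128 FPKM in the mutant and 4.48 and 4.51 FPKM in WT, and Zm00001eb426520 had 62.8 and 55.7 FPKM in the mutant and 2.51 and 2.02 FPKM in WT. The other two were Zm00001eb372830 (14.2-fold) and Zm00001eb316520 (11.1-fold), whose WT levels were between 5.76 and 12.1 FPKM.

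A total of 16 members were listed in the study's datasets, and 11 of these matched RefSeq through an accession. The study's list holds 243 genes that differed in all of its sample sets, from different backgrounds and years, with high levels in KN5585. The other 63 members are not in that list, and which of its criteria they missed was not examined. No source used here gives a role for them. The ratio of means had a median of 4.46 in the listed members and 4.18 in the rest. These libraries took part in the study's choice of the listed genes, whose direction is no independent evidence. Coordinates below are those of RefSeq on Zm-B73-REFERENCE-NAM-5.0.

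Among regulators, the gene with the widest gap was described as a MYB transcription factor (Zm00001eb136720, chromosome 3 from 128792069 to 128793670), of a large DNA-binding family in plants. It had 249 and 194 FPKM in the mutant and 3.23 and 4.70 FPKM in WT, with 125 and 168 reads behind the WT values. LOC100194394 (Zm00001eb028820, chromosome 1 from 154476590 to 154479510), for which RefSeq lists the synonym MYB59, had 132 and 96.0 FPKM in the mutant and 10.5 and 15.7 FPKM in WT. In both genes each replicate pair differed by between 1.29-fold and 1.49-fold, and the rule required a wider gap between genotypes. The ubiquitin ligase SINAT3 (Zm00001eb017210), of a family that marks proteins for degradation, had 109 and 132 FPKM in the mutant and 20.1 and 18.9 FPKM in WT.

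Enzymes of central metabolism formed the next group. Pyruvate decarboxylase 1 (*pdc1*, Zm00001eb351810, chromosome 8 from 120890920 to 120893393), which starts ethanol fermentation by turning pyruvate into acetaldehyde, had 163 and 214 FPKM in the mutant and 25.6 and 22.9 FPKM in WT, a 7.76-fold ratio of means. A phosphoenolpyruvate carboxylase (Zm00001eb238670, RefSeq synonym pep7, chromosome 5 from 147571805 to 147579319), which fixes bicarbonate to make oxaloacetate, had 131 and 134 FPKM in the mutant and 44.8 and 46.3 FPKM in WT. Its replicates differed by at most 1.03-fold in both genotypes, and its ratio was 2.91. Methionine adenosyltransferase (Zm00001eb417370, chromosome 10 from 88210648 to 88214353), which makes the methyl donor S-adenosylmethionine, had 113 and 128 FPKM in the mutant and 40.1 and 39.1 FPKM in WT. Phosphoethanolamine N-methyltransferase 3 (Zm00001eb360800), an enzyme that uses that methyl donor on the way to phosphocholine, had 53.8 and 57.8 FPKM in the mutant and 11.4 and 12.9 FPKM in WT. Its ratio of 4.60 exceeded the 3.05 of the methionine adenosyltransferase, and that difference was not tested.

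Among wall, cytoskeleton and stress proteins, expansin-B4 (Zm00001eb249580, chromosome 5 from 196483546 to 196485328), of the wall-loosening expansins, had 108 and 138 FPKM in the mutant and 42.0 and 32.7 FPKM in WT. The tubulin alpha-2 chain (Zm00001eb399990), a building block of microtubules, had 117 and 112 FPKM in the mutant and 41.5 and 34.6 FPKM in WT. Tubulin genes are close copies that can share reads, so this split between paralogs is uncertain. A low molecular weight heat shock protein (Zm00001eb193940, RefSeq synonym hsp22, chromosome 4 from 184768121 to 184769306), of the small chaperones that hold unfolded proteins, had 124 and 137 FPKM in the mutant and 42.7 and 39.9 FPKM in WT. These 3 genes had ratios of means between 3.01 and 3.30, all in the lower part of the members.

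The carrier and lipid-binding type members were ZmNCS2-2 and a protein with a retinaldehyde-binding domain. ZmNCS2-2 (Zm00001eb042450, RefSeq synonym permease, chromosome 1 from 223952295 to 223956302) had 63.7 and 67.0 FPKM in the mutant and 22.7 and 25.4 FPKM in WT. The gene described as a cellular retinaldehyde-binding/triple function protein (Zm00001eb250110, chromosome 5 from 198105421 to 198106485) had 147 and 164 FPKM in the mutant and 34.9 and 37.3 FPKM in WT. Such domains are best known for carrying small lipophilic molecules. The listed genes without a known function were LOC541714 (Zm00001eb218320), LOC100276500 (Zm00001eb247730), one named only as unknown (Zm00001eb081030) and Zm00001eb148450. Of these, Zm00001eb081030 had 102 and 98.3 FPKM in the mutant and 8.45 and 6.77 FPKM in WT, while LOC541714 had 156 and 165 FPKM in the mutant and 53.0 and 51.8 FPKM in WT.

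**Figure D3:**
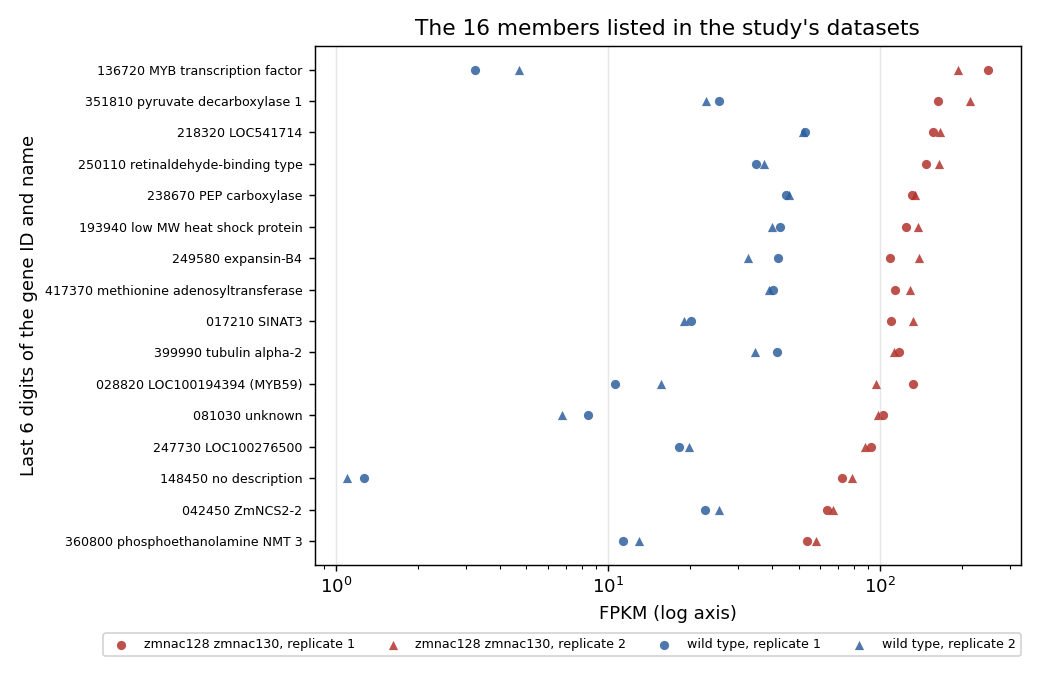
FPKM (log axis) in the 4 libraries for the 16 members listed in the study's datasets, *zmnac128 zmnac130* in red and WT in blue, ordered by mutant mean with the highest at the top. No gene overlaps between genotypes, which the rule required, and the widest gaps are those of Zm00001eb148450 (63.7-fold) and the MYB gene (55.8-fold).

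A few members appear in pathway lists built out of the study's own datasets. Each list holds at most 1 member, so the counts and medians that follow mostly describe other genes. The lists' genes too were selected with the help of these libraries as differing, so that most being called was close to fixed. Over all tested genes 6.43% were called higher and 7.18% lower, and nothing is read from the lists' counts against those shares. Of 7 glycolysis and fermentation genes, 4 were called higher and 3 lower. Beside *pdc1*, enolase 1 (Zm00001eb377870) had 2276 and 2817 FPKM in the mutant and 529 and 526 FPKM in WT, and only its WT mean kept it from being a member. Hexokinase 1 (Zm00001eb121400), which phosphorylates glucose at the entry to glycolysis, went the other way, at 45.2 and 52.5 FPKM in the mutant and 128 and 127 FPKM in WT (log2 fold change -1.37, SE 0.10). The list thus moved in both directions, with a median log2 fold change of 1.41.

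Both phosphoenolpyruvate carboxylases of the datasets were called higher, and all 5 genes of sulfur assimilation and methionine were as well (medians of 1.43 and 1.26). Chaperones and heat shock proteins gave 7 of 8 higher and 0 lower (median 1.41). The eighth, a HSP40/DnaJ peptide-binding protein (Zm00001eb146070), had 9.87 and 9.44 FPKM in the mutant and 18.1 and 17.7 FPKM in WT (log2 fold change -0.83), short of the fold limit. Of 11 cell wall genes 6 were called higher and 2 lower (median 1.12), and of 9 nucleotide sugar genes 6 were higher and 2 lower (median 1.22), with no member left after Zm00001eb320800 was set aside. The 15 transporters split into 9 higher and 6 lower (median 1.41), and the 4 transcription factors by description into 3 higher and 1 lower (median 1.17). The 7 zeins, taken from the same selection, were all called lower (median -1.45).

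Some members lay beside each other in the order of gene IDs. Zm00001eb166580 and Zm00001eb166590 are consecutive, as are Zm00001eb247730 and Zm00001eb247740, and a further pair of members was 14 IDs apart (Zm00001eb148450 and Zm00001eb148590). The member Zm00001eb247580 lay 15 IDs before Zm00001eb247730. The first pair is followed by Zm00001eb166600, with 4265 and 3555 FPKM in the mutant and 4944 and 4764 FPKM in WT. Next comes Zm00001eb166610, with 3122 and 2855 FPKM in the mutant and 6225 and 6762 FPKM in WT, and then the 22 kDa alpha zein z1C1_8 (Zm00001eb166620), with 631 and 632 FPKM in the mutant and 4545 and 4550 FPKM in WT. The mutant values of these last 3 genes lay below their WT values, while those of both members lay above, as the rule required. Reads of alpha zeins, whose copies are nearly the same in sequence, can be split wrongly among them. No description was read here for the first 4 of these genes, of which the study lists Zm00001eb166610. Whether they are such copies was not established, so their values are uncertain in that respect.

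Zm00001eb247740 had 402 and 399 FPKM in the mutant and 139 and 124 FPKM in WT, and its neighbour Zm00001eb247730 (chromosome 5 from 190721283 to 190722107) had 92.4 and 87.5 FPKM in the mutant and 18.2 and 19.8 FPKM in WT. The genes on either side of that pair (Zm00001eb247720 and Zm00001eb247750) had at most 1.80 FPKM in the mutant and 2.14 FPKM in WT. Over all members, 72 genes with the next ID up or down were tested and were not members themselves. Of these, 8 (11.1%) were called higher and 3 (4.17%) lower, against 6.43% and 7.18% of all tested genes, with a median log2 fold change of -0.06. These shares were not tested against each other.

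By flanking IDs of known place, 61 members could be put on a chromosome. Chromosome 5 held the most, 12 members or 15.2%, where 10.8% of the other genes eligible by level lay. Chromosome 6 held 1 member or 1.27%, against 9.35% of the eligible genes. The remaining 18 members (22.8%, against 19.4% of the eligible genes) lay between genes of different chromosomes. Counts for single chromosomes, chromosome 6 among them, can therefore be too low. Gene lengths were recovered as the smallest that turn the FPKM values into whole reads, so true lengths can be a multiple. Recovered length had a median of 1297 bases in members and 1411 bases in eligible genes that missed the ratio. The share shorter than 1000 bases was 34.2% in members and 28.6% in those genes. These shares are descriptions, and no difference was tested.

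The rule required a gap of at least 2.5-fold between genotypes and set no limit on the spread between replicates. Among members that spread reached 1.80-fold in the mutant and 2.41-fold in WT. The larger replicate exceeded the smaller by a median of 1.14-fold in the mutant and 1.12-fold in WT, compared with 1.11-fold and 1.06-fold in eligible genes that missed the ratio. In the mutant, 7 members differed by over 1.5-fold between replicates, led by Zm00001eb002400, Zm00001eb427400 and Zm00001eb419150 (1.76-fold). In WT, 8 members did, among them Zm00001eb421480 and Zm00001eb404250 with few reads and the abundant Zm00001eb166590. In these genes the size of the ratio rests on how 2 unequal libraries average. Of the 79 members, 71 had at least 100 reads in both WT libraries, and the fewest reads of any member in a mutant library was 448.

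**Figure D4:**
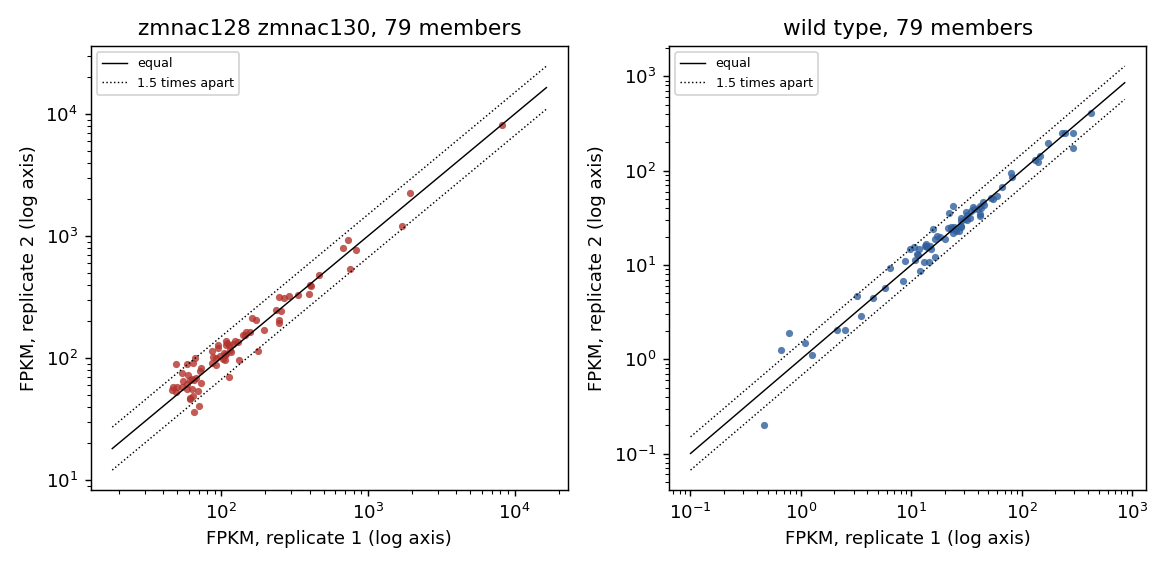
Replicate 2 against replicate 1 (FPKM, both axes log) for the 79 members in *zmnac128 zmnac130* (left) and WT (right), with equality as a solid line and 1.5-fold as dotted lines. In the mutant 7 and in WT 8 members lie outside the dotted lines, and in WT these include the lowest values.

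The edges of the set were not sharp. Just inside the ratio limit lay ZmNCS2-2, Zm00001eb371200 and Zm00001eb242400, each at 2.51. Just outside lay Zm00001eb318770 at 2.49, Zm00001eb029200 at 2.48 and Zm00001eb009790 at 2.47. For the level limit, Zm00001eb075600, Zm00001eb427400 and Zm00001eb012410 were inside with mutant means of 50.3, 50.5 and 50.8 FPKM, while Zm00001eb112590, Zm00001eb155350 and Zm00001eb009800 were outside with 49.98, 48.2 and 47.0 FPKM. A single gene reached a mutant mean of 50 FPKM with both WT libraries at 0, and 5 genes met the ratio with a WT mean of 500 FPKM or more.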

How the data were processed

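The authors aligned reads with HISAT2 (version not given in the sources used here) to the B73 genome and deposited FPKM values per gene. No source used here names the program that made them. Replicate 3 copied replicate 1 and was counted once. The members and lists were chosen with earlier results of these data known. Whole reads and depth were recovered from the FPKM steps (33589 of 33589 genes above 0, tolerance 0.002 reads). Genes averaging 1 FPKM or more were compared on log2(FPKM + 1), which understates fold changes of low genes, with limma 3.58.1 in R 4.3.3 (eBayes with trend, two-sided, Benjamini-Hochberg, 2 residual and 4.04 prior degrees of freedom). The fit was tried on simulated data with the same spread for every gene. Spread that differs between genes was not simulated. Named genes were all members with a description, the 10 highest, the 10 largest ratios, those nearest the limits and, chosen after their values were seen, members and neighbours given as examples. Chromosomes came from 173 RefSeq-matched IDs in order. Promoter motifs and proteins were not analysed here. The authors' own comparisons were not used. Alternatives are given in the closing section. Python 3.11.15 served for the other steps.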

Additional observations from a re-analysis of the deposited data

How the results depend on the processing

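All 79 members were called higher under each alternative that kept all libraries. The rule had used the same contrast, so member calls were close to fixed and nothing is read from them. Without WT replicate 1, 78 were called, and Zm00001eb419150, whose mutant libraries differ by 1.76-fold, was not (adjusted p = 0.0621 from limma, log2 fold change 1.79). Leaving out a library thus gave 78 to 79 member calls, 1034 to 1287 genes higher and 1054 to 1501 lower over all genes, and 86 to 112 genes under the rule, with 74 to 79 of the 79 members kept (74 without mutant replicate 1 and 75 without mutant replicate 2). A pseudocount of 10 gave 305 genes higher and 307 lower over all genes, and restricting the test to the 8396 genes averaging 10 FPKM or more gave 510 and 426. With limma voom on recovered reads, added after the data had been seen, 1624 genes were called higher and 1874 lower. On the TPM scale 1758 were higher and 1595 lower, against 1227 and 1371 with FPKM, so the larger count changed sides. The number of members moved with the limits, to 153 at a ratio of 2 and 46 at a ratio of 3. It was 137 on the TPM scale, where 78 of the 79 were kept and the same limits stand for lower FPKM because FPKM summed to 578131 to 621315 per library. Without Zm00001eb341550, also chosen after the data had been seen, the members' mean share of all FPKM was 2.75% in the mutant and 0.559% in WT. The replicate numbers are shared between genotypes by label only. The deviations of same-numbered libraries correlated at -0.0779 across 19082 genes, and with a replicate block 1251 genes were called higher, 1381 lower and 79 members. Of the 36 named members' log2 fold changes, 0 changed sign under any alternative. The rule had fixed that in advance, so nothing is read from it. Of their values, 100 moved by over 1 SE of the main fit while 368 did not. The reads behind the WT values limit the ratios of the members nearly silent there.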
